A study of Mus musculus with 40 samples.

Results

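Developing mouse oligodendrocytes kept in interferon-gamma (IFN-gamma) for 48 h were compared with untreated cells prepared the same way and collected at 24 h. The comparison uses 8 of the 40 libraries of the series, 4 of IFN-gamma 48 h cells and 4 of untreated 24 h cells, taken by their labels. It asks whether the genes of the oligodendrocyte lineage in treated cells stood where a younger untreated culture stood, or differed from that culture too. Both groups were oligodendrocyte progenitors of wild-type C57BL/6 pups aged 6 days, immunopanned from cortices, passaged 2 times and given 12 to 14 h of differentiation before plates were assigned at random to treatment. The treated plates received IFN-gamma at 200 U/ml for 48 h, and the untreated plates received no agent for 24 h. By design the groups therefore differ in treatment and in 24 h of time in differentiation. Those 2 differences cannot be told apart in this comparison alone. Untreated cells of 48 h are given beside it for that reason. As given below, untreated 24 h libraries 1 to 3 held Xist and Y-linked reads together, while each IFN-gamma 48 h library held mainly 1 of these. The animals or cultures behind the groups may therefore differ as well, which could not be told apart from treatment and was not tested. The labels do not say whether libraries of a group came from separate cultures or animals, so p-values reflect only how these libraries vary. That variation may in part be technical. Sex-linked reads differed among the IFN-gamma 48 h libraries, so these did not all come from the same pool of cells.

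Oligodendrocytes form the myelin sheath around axons. Their progenitors divide and carry the receptor Pdgfra, pass through a premyelinating stage marked by Gpr17, Enpp6 and Bcas1, and then express the structural proteins of myelin, under the control of transcription factors that include Olig2, Sox10 and Myrf. IFN-gamma is a cytokine released by T cells and natural killer cells. It acts through the kinases Jak1 and Jak2 and induces Irf1 and with it genes of antigen presentation and cell-autonomous defence.

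The 8 libraries held 15142744 to 22651092 reads on genes. Of 39056 gene identifiers, 15135 had enough reads to be tested. Levels are CPM, read counts relative to TMM-scaled library totals, and are not compared between genes. Fold changes are log2 values of IFN-gamma 48 h over untreated 24 h, with their standard error (SE), and adjusted p is from edgeR's quasi-likelihood test with Benjamini-Hochberg adjustment over the 15135 genes. A gene was called at an adjusted p under 0.05. It was described as within 2-fold where it was not called and the 95% interval of its log2 fold change lay between -1 and 1. A pair of libraries stood apart from the rest of their groups. Among the 107 tested genes of 6 lineage lists, IFN-gamma 48 h library 1 held the lowest of its group's values for 72, and untreated 24 h library 4 held the highest of its group's values for 71. For the 40 structural myelin and premyelinating genes these counts were 37 and 38. The 2 libraries lie on opposite sides, so the lineage results and the counts of the other lists are also given without both, an alternative chosen with these results known.

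The female transcript Xist stood at 718.1, 8.315, 508.5 and 0.06539 CPM in the IFN-gamma 48 h libraries, against 81.3, 100.6, 148.8 and 0.8054 CPM in the untreated 24 h libraries, of which the first 3 thus held Xist and Y-linked reads together. In IFN-gamma 48 h libraries 1 and 3 the sum of 4 Y-linked genes was 8.183 and 1.145 CPM, against 324.5 to 338.7 CPM of these Y-linked genes in IFN-gamma 48 h libraries 2 and 4 and 216.1 to 330.9 CPM in the untreated 24 h libraries. None of the 4 was called, also at an unadjusted p under 0.05 in edgeR (0 higher and 0 lower). With the Y-linked level as a covariate, 3279 genes were called. Of the microglial genes, 9 of the 12 listed were below the filter, none of the other 3 was called (0 at an unadjusted p under 0.05), and the summed list was 26.65 to 29.03 CPM in IFN-gamma 48 h libraries and 24.68 to 29.89 CPM in untreated 24 h libraries. In bulk RNA, fewer cells of a type and less RNA per cell cannot be told apart. This holds for every lineage gene below.

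On the time scale of untreated differentiation, IFN-gamma 48 h cells lay on average past untreated 24 h cells and short of untreated 48 h cells. Single libraries overlapped with both untreated groups. The scale was built from groups outside the comparison. It uses the 1044 genes that rose and the 894 that fell by at least 2-fold between untreated 8 h and untreated 48 h, with untreated 8 h set to 0 and untreated 48 h to 1. On the rising genes the IFN-gamma 48 h libraries stood at 0.047, 0.645, 0.691 and 0.492, against 0.213, 0.238, 0.211 and 0.684 for the untreated 24 h libraries. On the falling genes the IFN-gamma 48 h libraries stood at 0.027, 0.833, 0.867 and 0.545, against 0.166, 0.188, 0.209 and 0.563 in untreated 24 h cells. IFN-gamma 48 h library 1 was thus the youngest of the 8 on both sets, and untreated 24 h library 4 stood among the other treated libraries, so the groups overlap.

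The difference of group means was 0.133 on rising genes and 0.286 on falling genes, given without a test. Without the 2 libraries that stood apart it was 0.389 and 0.561, and no library of the 2 groups then overlapped. Gene by gene, the median place of IFN-gamma 48 h cells was 0.424 on rising genes (interquartile range 0.253 to 0.644) and 0.609 on falling genes (0.453 to 0.775). The median place of untreated 24 h cells was 0.317 on rising genes (0.216 to 0.428) and 0.254 on falling genes (0.19 to 0.35). By these medians the treated cells stood further along on genes lost with time than on genes gained with time. The size of this contrast varied with the scale. From untreated 1 h to 48 h the difference of group means was 0.13 on rising and 0.189 on falling genes. Without genes called between IFN-gamma and untreated cells at 1 or 8 h, this difference was 0.086 and 0.367. Of the untreated 48 h libraries, library 2 stood at 0.586 and 0.674 and the other 3 at 1.019 to 1.217. The older end of the scale is thus itself set by libraries that differ. IFN-gamma 48 h libraries 2 (0.645 and 0.833) and 3 (0.691 and 0.867) stood past untreated 48 h library 2.

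**Figure D1:**
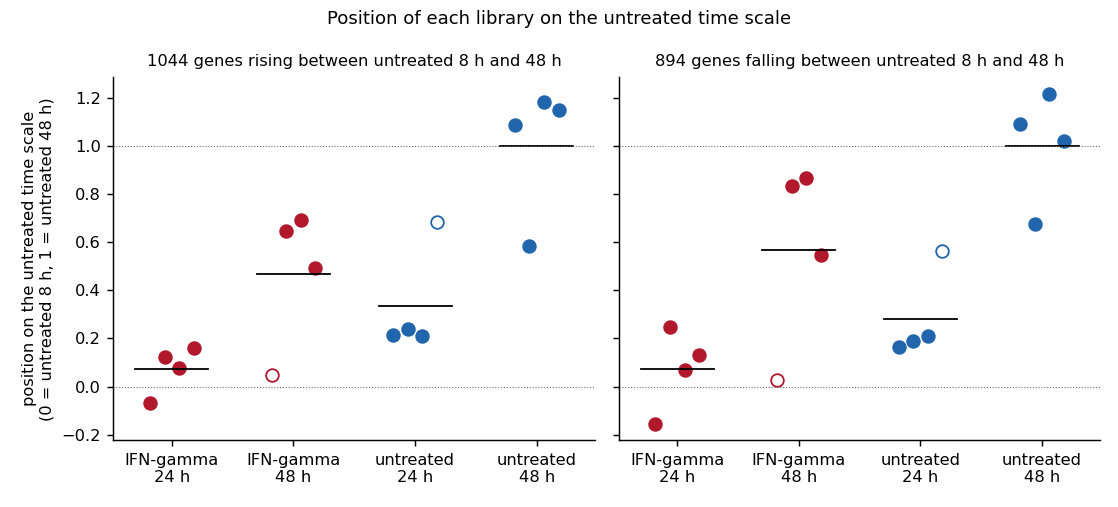
Position of each library on the untreated time scale (y axis, 0 for untreated 8 h and 1 for untreated 48 h), for rising genes on the left and falling genes on the right. Points are libraries, black bars are group means, and open symbols mark IFN-gamma 48 h library 1 (0.047 and 0.027) and untreated 24 h library 4 (0.684 and 0.563).

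Over all genes, 3152 were called between IFN-gamma 48 h and untreated 24 h cells, 20.8% of those tested, with 1715 higher (11.3%) and 1437 lower (9.49%). A further 9799 genes (64.7%) were within 2-fold, and 2184 were undecided. When the 2 libraries that stood apart were left out 5322 of 15264 genes were called, 2710 higher (17.8%) and 2612 lower (17.1%). Against untreated cells of the same age the treated cells differed in 5570 genes, with 2554 higher (16.9%) and 3016 lower (19.9%). Untreated 48 h cells differed from untreated 24 h cells in 6158 genes, with 3322 higher (21.9%) and 2836 lower (18.7%). These comparisons share libraries with the main one, so their values are set side by side without a measure of their overlap.

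The 107 lineage genes divided unevenly by role. In all, 14 were higher and 20 lower in IFN-gamma 48 h cells than in untreated 24 h cells, against 11.3% and 9.49% of all genes. Those within 2-fold were 47, against 64.7% of all genes. Without the 2 libraries 43 were higher and 19 lower, against 17.8% and 17.1% of all genes. These shares of all genes also stand beside the counts of each list below. The median log2 fold change of the 107 was 0.037, against -0.007 for all genes tested, and it was 0.31 without the 2 libraries, against 0.023 for all genes. Set against untreated 48 h cells the median was -0.55, and untreated 48 h cells over untreated 24 h cells had a median of 0.63. The mean of IFN-gamma 48 h cells lay between the means of untreated 24 h and 48 h cells for 57 of the 107 (53.3%, against 42.5% of all genes). It lay below both untreated means for 37 (34.6%, against 29.4%) and above both for 13 (12.1%, against 28.1%).

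Single treated libraries differed on these genes. IFN-gamma 48 h library 1 was below all 4 untreated 24 h libraries for 69 of the 107 lineage genes and above all of them for 16. For IFN-gamma 48 h library 3 these counts were 28 below and 46 above, for library 2 they were 32 and 32, and for library 4 they were 35 and 23. Set against untreated 24 h libraries 1 to 3 alone, IFN-gamma 48 h libraries 2, 3 and 4 were above all 3 for 65, 68 and 59 genes and below all 3 for 32, 29 and 38. Of the 34 lineage genes called, 29 were also called without both libraries and 5 were not. A core of 15 was called under each of the 18 other settings tried, 7 of them higher and 8 lower.

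**Figure D2:**
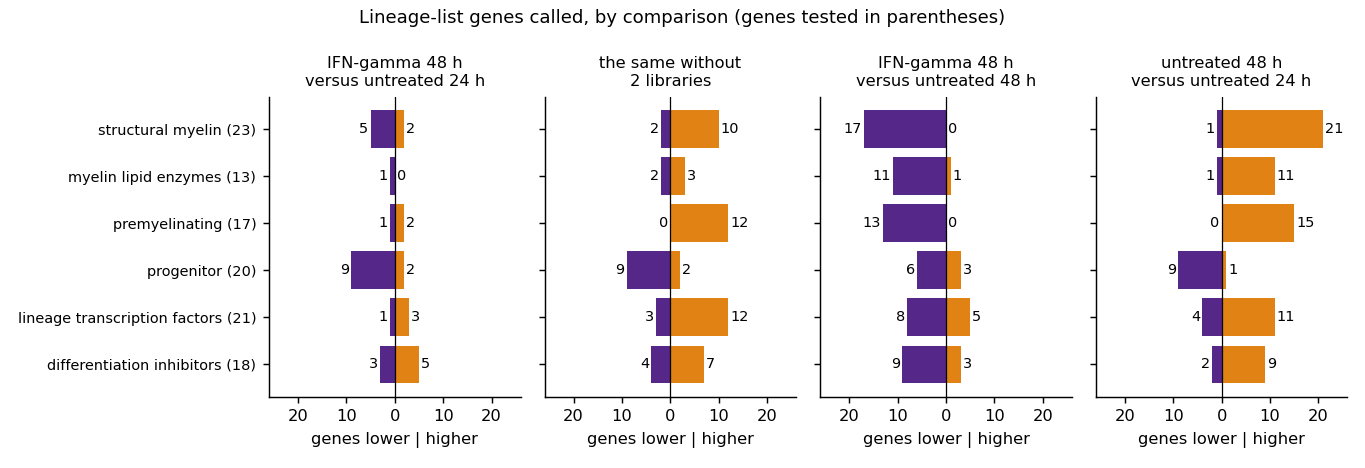
Lineage genes called in each of the 6 lists (rows, with the number tested in parentheses), lower to the left and higher to the right of 0 on the x axis, for each comparison. Premyelinating genes are 2 higher and 1 lower with all 8 libraries and 12 higher and 0 lower without the 2 libraries, while progenitor genes are 2 higher and 9 lower in both.

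Structural myelin genes did not move as a block: 2 of the 23 tested were higher in IFN-gamma 48 h cells, 5 were lower, 6 were within 2-fold and 10 were undecided. Tspan2 and Car2 were higher, and Gpr37, Gjb1, Opalin, Trf and Pllp were lower. The median log2 fold change was 0.24, against -1.67 relative to untreated 48 h cells and 1.61 for untreated 48 h over untreated 24 h cells. Leaving out the 2 libraries gave 10 higher and 2 lower, with a median of 0.96. Klk6 and Aspa were below the filter. The groups did not overlap for 1 myelin gene that was higher and 4 that were lower, against 10.2% and 7.16% of all genes.

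Genes of major myelin proteins were not called with all 8 libraries, and their wide error does not show likeness to the younger culture. Mbp, myelin basic protein, had 45.2, 193, 425 and 281 CPM in IFN-gamma 48 h libraries 1 to 4, against 89.8, 94.7, 120.4 and 325 CPM in untreated 24 h libraries 1 to 4. The groups overlap, with treated library 1 lowest of the 8 and untreated library 4 second highest. The log2 fold change was 0.58 ± 0.57 (SE) with an adjusted p of 0.524, with a 95% interval of -0.58 to 1.74, and untreated 48 h cells averaged 1802 CPM. The log2 fold change of Mbp without the 2 libraries was 1.58 (adjusted p = 0.0325). Mog, a glycoprotein of the outer myelin surface, had a log2 fold change of 0.29 ± 0.51 with all libraries and 1.63 (adjusted p = 0.00718) without the 2. Mag, Mobp, Cnp, Mal, Nfasc and Apod were likewise not called with all 8 libraries and higher without the 2, at log2 fold changes of 1.92, 2.08, 0.92, 2.20, 1.21 and 1.07.

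Gpr37, a receptor of maturing oligodendrocytes known in mice to restrain myelination, was the myelin-list gene that fell most. It had 1.58, 4.37, 6.63 and 4.58 CPM in IFN-gamma 48 h libraries 1 to 4, against 14, 12.6, 15 and 19.4 CPM in untreated 24 h libraries 1 to 4. All 4 treated libraries were below all untreated 24 h libraries, and untreated 48 h cells stood higher still at 43.7 CPM. The log2 fold change was -1.85 ± 0.33 (SE) with an adjusted p of 4.64e-05, and it was -1.40 (adjusted p = 0.00121) without the 2 libraries. Its fall was not called in the isoform table summed per gene, at -0.63 with an adjusted p of 0.693. On the scale from untreated 8 h to 48 h, Gpr37 stood at -0.96 in treated cells and 0.188 in untreated 24 h cells, so treated cells were below untreated 8 h cells.

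Gjb1, the gap junction protein connexin 32, had 3.3, 2, 3.01 and 4.58 CPM in IFN-gamma 48 h cells, against 5.86, 6.71, 8.05 and 7.38 CPM in untreated 24 h cells. The groups did not overlap (log2 fold change -1.13 ± 0.20 (SE), adjusted p = 2.84e-05), and without the 2 libraries the log2 fold change was -1.11 (adjusted p = 0.000299). This gene fell with time in untreated cells too, at -0.65 (adjusted p = 0.00641) for untreated 48 h over untreated 24 h. Tspan2, a tetraspanin of myelin, had 50.8, 100.1, 127 and 88 CPM in IFN-gamma 48 h cells, against 49.1, 48.2, 49.1 and 72.7 CPM in untreated 24 h cells. Treated libraries 2 to 4 were above every untreated 24 h library and library 1 was within their range (log2 fold change 0.74 ± 0.20 (SE), adjusted p = 0.00662). Car2, carbonic anhydrase 2, had 2.73, 2.19, 3.56 and 3.47 CPM in IFN-gamma 48 h cells, against 0.76, 1.2, 1.43 and 1.53 CPM in untreated 24 h cells and no overlap (log2 fold change 1.26 ± 0.32 (SE), adjusted p = 0.00358). It stood at 3.45 CPM in untreated 48 h cells, from which treated cells differed by -0.18 (adjusted p = 0.665).

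The lower calls of Opalin, Trf and Pllp were lost without the libraries that stood apart. Pllp, plasmolipin, had 12.7, 29.7, 27.9 and 23.5 CPM in IFN-gamma 48 h cells, against 33.1, 31.7, 31.3 and 56.8 CPM in untreated 24 h cells, with the lowest value in treated library 1 and the highest in untreated library 4 (log2 fold change -0.71 ± 0.21 (SE), adjusted p = 0.0119). Without both, its log2 fold change was -0.23 (adjusted p = 0.35). Transferrin (Trf) went the same way, with -0.80 ± 0.25 (adjusted p = 0.022) in all libraries and -0.26 (adjusted p = 0.429) without the 2. Opalin, a glycoprotein of myelin, was at -1.10 ± 0.39 (adjusted p = 0.0404) and -0.31 (adjusted p = 0.577) without them.

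**Figure D3:**
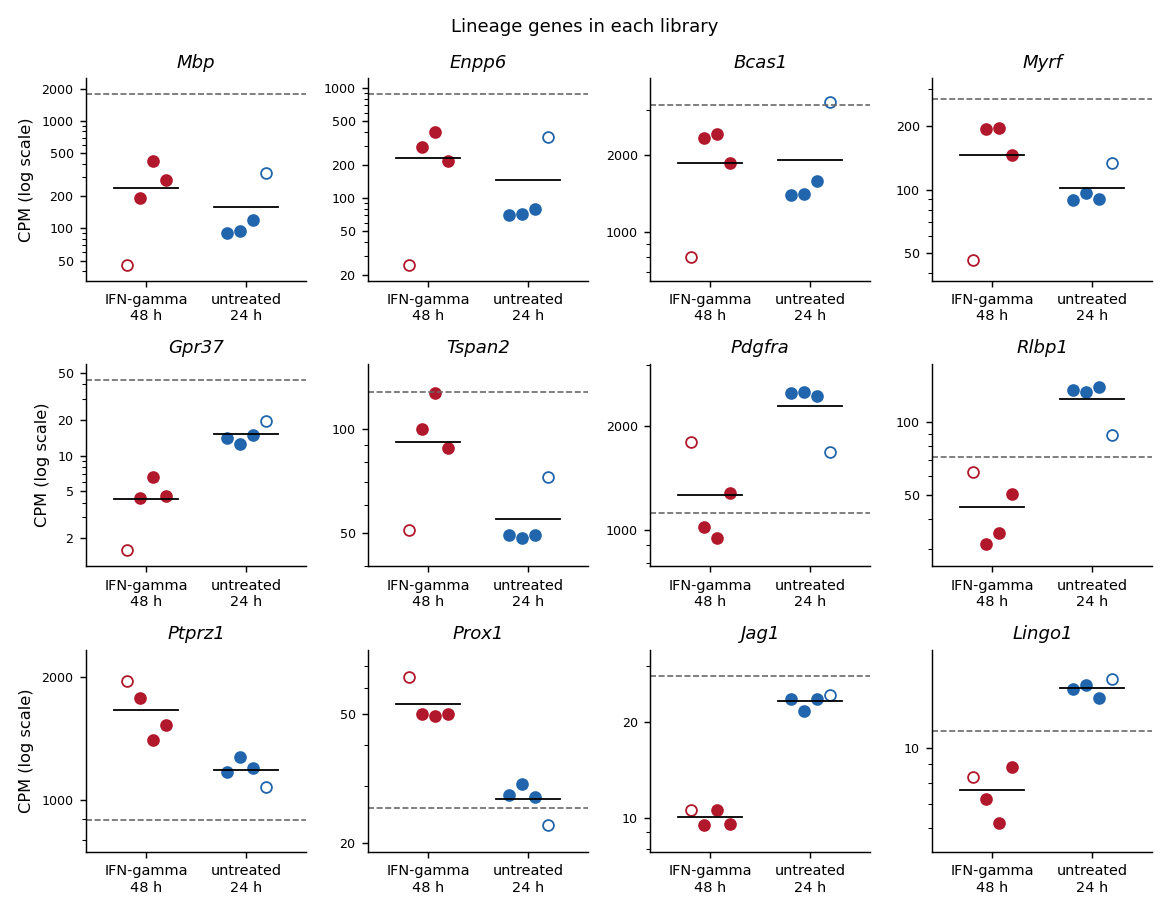
CPM on a log scale (y axis) of 12 lineage genes in the IFN-gamma 48 h libraries (left in each panel) and the untreated 24 h libraries (right). Points are libraries, black bars are group means, dashed lines are the untreated 48 h mean, and open symbols are the 2 libraries that stood apart. Mbp, Enpp6, Bcas1 and Myrf overlap between groups, while Gpr37, Rlbp1, Ptprz1, Prox1, Jag1 and Lingo1 do not.

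Enzymes of myelin lipids mostly stayed close to untreated 24 h cells: 11 of the 13 were within 2-fold, 1 was lower and none was higher, against 4 lower and 0 higher at an unadjusted p under 0.05. DESeq2 called the same number. Relative to untreated 48 h cells 11 of the 13 were lower. Smpd3, a sphingomyelinase that cleaves membrane sphingomyelin, was the gene called, with 27.3, 21.1, 18.1 and 21.8 CPM in IFN-gamma 48 h cells, against 29.7, 30.3, 32.2 and 27.3 CPM in untreated 24 h cells. Treated library 1 and untreated library 4 nearly met, and the other treated libraries were clearly lower (log2 fold change -0.43 ± 0.095 (SE), adjusted p = 0.000777). This gene also fell with time in untreated cells, at -0.69 (adjusted p = 3.63e-06). Ugt8a, which makes galactosylceramide, had 208, 639, 805 and 540.3 CPM in IFN-gamma 48 h cells, against 372, 381, 489.7 and 881 CPM in untreated 24 h cells, with overlap and no call (log2 fold change 0.045 ± 0.31 (SE), adjusted p = 0.942). Fa2h, Elovl1 and Scd2 were higher once the 2 libraries were left out, at 1.35, 0.35 and 0.30, and Smpd3 and Plpp1 were lower, at -0.58 and -0.47.

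Of 24 genes of cholesterol synthesis, 22 were within 2-fold and 2 were higher, and 3 were higher without the 2 libraries. Hsd17b7, a sterol reductase of the pathway, had 99, 278, 306 and 213 CPM in IFN-gamma 48 h cells, against 73.9, 77.3, 80.5 and 138 CPM in untreated 24 h cells. Treated libraries 2 to 4 were above all untreated 24 h libraries, and treated library 1 was above untreated libraries 1 to 3 only (log2 fold change 1.28 ± 0.25 (SE), adjusted p = 0.000203). Stard4, a cholesterol carrier, had 92.5, 116, 124 and 101 CPM in IFN-gamma 48 h cells, against 62.4, 61.2, 72.9 and 73.6 CPM in untreated 24 h cells and no overlap (log2 fold change 0.68 ± 0.17 (SE), adjusted p = 0.00239). Hmgcs1, an early enzyme of the pathway, was not called, at -0.027 ± 0.17.

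Premyelinating genes depended strongly on which libraries were counted. With all 8 libraries 2 of 17 were higher (Rras2 and Rnf122), 1 was lower (Mycl) and 6 were within 2-fold. Without the 2 libraries 12 were higher and none was lower, with a median log2 fold change of 0.97, against 0.15 with all 8. Relative to untreated 48 h cells 13 of the 17 were lower and none was higher, with a median of -1.09. Casr was below the filter, and 9630013A20Rik was not analysed here.

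Enpp6, a phosphodiesterase that marks newly forming oligodendrocytes, had 24.5, 294, 397 and 217 CPM in IFN-gamma 48 h libraries 1 to 4, against 70.8, 71.6, 79.1 and 358 CPM in untreated 24 h libraries 1 to 4. Treated libraries 2 to 4 were above untreated libraries 1 to 3, and the remaining 2 libraries crossed over to the other side. The gene was not called (log2 fold change 0.68 ± 0.60 (SE), adjusted p = 0.465). Its log2 fold change without the 2 libraries was 2.05 (adjusted p = 0.00301). Bcas1, another marker of newly myelinating cells, had 797, 2330, 2420 and 1860 CPM in IFN-gamma 48 h cells, against 1396, 1411, 1579 and 3221 CPM in untreated 24 h cells. It was not called with all libraries (log2 fold change -0.039 ± 0.26 (SE), adjusted p = 0.939) and changed sign without the 2, at 0.61 (adjusted p = 0.0226). Gpr17, a receptor of premyelinating cells that restrains their maturation, had 462, 1768, 1827 and 1450 CPM in IFN-gamma 48 h cells, against 1367, 1428, 1463 and 2295 CPM in untreated 24 h cells. The groups overlap and neither fit called it, with -0.25 ± 0.35 in all libraries and 0.26 (adjusted p = 0.586) without the 2.

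Rras2, a small GTPase of the Ras family, was higher in all treated libraries, with 43.7, 42.2, 50.3 and 41.6 CPM in IFN-gamma 48 h cells, against 22.7, 23.4, 26.2 and 26.8 CPM in untreated 24 h cells. There was no overlap (log2 fold change 0.84 ± 0.18 (SE), adjusted p = 0.000607), and untreated 48 h cells averaged 58.8 CPM. Rnf122, a ubiquitin ligase, had 58.1, 109, 129 and 93.5 CPM in IFN-gamma 48 h cells, against 52.3, 50.6, 47.5 and 86.5 CPM in untreated 24 h cells, with treated library 1 above untreated libraries 1 to 3 and below library 4 (log2 fold change 0.71 ± 0.20 (SE), adjusted p = 0.0104). Mycl, a transcription factor of the Myc family, was lower at -0.65 ± 0.24 (adjusted p = 0.0468), a call lost without the 2 libraries at -0.20 (adjusted p = 0.532).

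Of the progenitor genes 9 of 20 were lower in IFN-gamma 48 h cells than in untreated 24 h cells, 2 were higher and 7 were within 2-fold, with a median log2 fold change of -0.39. The counts without the 2 libraries were the same, 9 lower and 2 higher, with a median of -0.35. Relative to untreated 48 h cells 6 were lower and 3 higher, with a median of -0.073, and untreated 48 h over untreated 24 h cells had 9 lower and 1 higher, with a median of -0.32. For 11 of the 20 the treated mean was below both untreated means.

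Pdgfra, the receptor for platelet-derived growth factor that defines progenitors, had 1799, 1017, 946 and 1274 CPM in IFN-gamma 48 h libraries 1 to 4, against 2481, 2499, 2437 and 1674 CPM in untreated 24 h libraries 1 to 4. Treated library 1 lay above untreated library 4, and the other 3 treated libraries were below every untreated 24 h library. The log2 fold change was -0.85 ± 0.17 (SE) with an adjusted p of 0.000297, and without the 2 libraries it was -1.18 (adjusted p = 1.23e-06). Treated cells were not called against untreated 48 h cells, which averaged 1116 CPM, at 0.17 (adjusted p = 0.459). Cspg4, the NG2 proteoglycan of progenitors, had 450.3, 299, 267 and 369 CPM in IFN-gamma 48 h cells, against 597, 609.5, 548 and 416 CPM in untreated 24 h cells and some overlap (log2 fold change -0.65 ± 0.18 (SE), adjusted p = 0.00873). Xylt1, which starts glycosaminoglycan chains on proteoglycans, was lower by a similar pattern, at -0.80 ± 0.16 (adjusted p = 0.000197).

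Rlbp1, a retinaldehyde-binding protein enriched in progenitors, fell below both untreated ages. It had 62.5, 31.7, 34.9 and 50.6 CPM in IFN-gamma 48 h libraries 1 to 4, against 136, 133, 141 and 88.4 CPM in untreated 24 h libraries 1 to 4, and all treated libraries were below all untreated 24 h libraries. The log2 fold change was -1.47 ± 0.17 (SE) with an adjusted p of 1.38e-08, and relative to untreated 48 h cells it was -0.69 (adjusted p = 0.00153). Olfm2, an olfactomedin, had 25.2, 27.8, 31.2 and 31.3 CPM in IFN-gamma 48 h cells, against 46.1, 42.2, 39.7 and 37.4 CPM in untreated 24 h cells with no overlap (log2 fold change -0.52 ± 0.094 (SE), adjusted p = 6.22e-05), and untreated 48 h cells averaged 44.7 CPM. The proteoglycan versican (Vcan) had 129, 104, 104 and 108 CPM in IFN-gamma 48 h cells, against 152, 155, 162 and 132 CPM in untreated 24 h cells and no overlap (log2 fold change -0.43 ± 0.082 (SE), adjusted p = 0.000125). C1ql1, Cacng4 and neurocan (Ncan) were also lower, at -0.99, -0.48 and -0.17, and the call of Ncan was lost without the 2 libraries at -0.13 (adjusted p = 0.0977).

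A pair of progenitor genes went the other way. Ptprz1, a receptor phosphatase of progenitors, had 1955, 1784, 1403 and 1530 CPM in IFN-gamma 48 h cells, against 1175, 1279, 1202 and 1081 CPM in untreated 24 h cells. No library overlapped (log2 fold change 0.49 ± 0.12 (SE), adjusted p = 0.0023), while untreated cells lost this transcript between 24 h and 48 h, at -0.40 (adjusted p = 0.00724). Tmem100, a small membrane protein, had 34.1, 32.6, 29.7 and 31.4 CPM in IFN-gamma 48 h cells, against 23, 22.1, 23.7 and 22.8 CPM in untreated 24 h cells, again with no overlap (log2 fold change 0.48 ± 0.11 (SE), adjusted p = 0.000865) and with a fall over time in untreated cells, at -0.39 (adjusted p = 0.00436).

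Proliferation genes were lower in part, and in full without the 2 libraries. Of 25, 12 were lower and none was higher, against 17 lower and 0 higher at an unadjusted p under 0.05, and without the 2 libraries all 25 were lower. The medians were -0.51 and -1.05. Untreated 48 h cells were lower than untreated 24 h cells for all 25, and treated cells were higher than untreated 48 h cells for 21. Ccnb1, cyclin B1, had 268, 95.2, 119 and 179 CPM in IFN-gamma 48 h cells, against 324, 317, 335 and 182 CPM in untreated 24 h cells. Treated libraries 2 to 4 were below all untreated 24 h libraries and treated library 1 was between them (log2 fold change -0.81 ± 0.21 (SE), adjusted p = 0.0041). Mki67, a marker of cycling cells, was not called with all libraries (log2 fold change -0.51 ± 0.22 (SE), adjusted p = 0.0988) and was at -1.12 (adjusted p = 2.96e-06) without the 2.

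Among lineage transcription factors 12 of 21 were within 2-fold, 3 were higher (Prox1, Zfp536 and Carhsp1) and 1 was lower (Sox5). Leaving out the 2 libraries gave 12 higher and 3 lower, against 5 higher and 8 lower relative to untreated 48 h cells. Sox17 was below the filter. The factors that define the lineage were not called: Sox10 had 582, 854, 897 and 737 CPM in IFN-gamma 48 h cells, against 660.1, 658, 622 and 885 CPM in untreated 24 h cells, with a log2 fold change of 0.12 ± 0.12, and Olig2 had 898, 688, 552 and 614 CPM in IFN-gamma 48 h cells, against 807, 795, 719 and 781 CPM in untreated 24 h cells, with -0.17 ± 0.13. Both sets overlap, and the 95% intervals of -0.12 to 0.36 and -0.43 to 0.087 lie within 2-fold. With those 2 libraries left out Sox10 was 0.38 (adjusted p = 0.00913) and Olig2 was -0.31 (adjusted p = 0.0739).

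Myrf, the factor that switches on myelin genes, had 46.4, 194, 197 and 146 CPM in IFN-gamma 48 h libraries 1 to 4, against 89.2, 96.2, 90.3 and 134 CPM in untreated 24 h libraries 1 to 4. Treated libraries 2 to 4 were above every untreated 24 h library and treated library 1 was below all of them. It was not called (log2 fold change 0.51 ± 0.29 (SE), adjusted p = 0.229), and without the 2 libraries it was 0.98 (adjusted p = 0.00346), while untreated 48 h cells averaged 269.5 CPM. Nkx2-2, Nkx6-2, Zeb2 and Tcf7l2 were also not called with all 8 libraries and higher without the 2, at 0.98, 1.59, 0.74 and 0.97.

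Prox1, a homeobox factor, stood above both untreated ages. It had 64.8, 49.9, 49.1 and 49.8 CPM in IFN-gamma 48 h libraries 1 to 4, against 28.1, 30.4, 27.8 and 22.8 CPM in untreated 24 h libraries 1 to 4. All treated libraries were above all untreated 24 h libraries, with treated library 1 the highest (log2 fold change 0.97 ± 0.11 (SE), adjusted p = 4.93e-09). Relative to untreated 48 h cells the log2 fold change was 1.06 (adjusted p = 7.24e-10), and untreated cells of the 2 ages were not called apart, at -0.085 (adjusted p = 0.564). Zfp536, a zinc finger factor, had 17.9, 17.2, 20.1 and 15.6 CPM in IFN-gamma 48 h cells, against 8.3, 8.81, 8.29 and 10.6 CPM in untreated 24 h cells, with no overlap (log2 fold change 0.97 ± 0.21 (SE), adjusted p = 0.000598) and an untreated 48 h mean of 22.1 CPM. Carhsp1 was higher at 0.44 ± 0.14 (adjusted p = 0.0176). Sox5, a factor of progenitors, was lower at -0.68 ± 0.24 (adjusted p = 0.0373), a call made under 11 of the 18 other settings.

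Genes listed as inhibitors of differentiation moved in both directions. Of 18, 5 were higher (Notch1, Hey1, Tcf4, Axin2 and Bmp2), 3 were lower (Jag1, Hes1 and Lingo1) and 8 were within 2-fold. Without the 2 libraries 7 were higher and 4 lower. The Id genes, repressors of basic helix-loop-helix factors, were not called in this comparison. Id1, Id2, Id3 and Id4 were each lower than in untreated 48 h cells, at -2.76, -0.52, -1.24 and -1.41.

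Jag1, a ligand of Notch receptors, had 10.6, 9.5, 10.6 and 9.55 CPM in IFN-gamma 48 h libraries 1 to 4, against 23.6, 21.7, 23.6 and 24.3 CPM in untreated 24 h libraries 1 to 4. The groups were far apart beside their spread (log2 fold change -1.21 ± 0.091 (SE), adjusted p = 2.9e-13), also without the 2 libraries at -1.20 (adjusted p = 5.13e-11), and untreated 48 h cells averaged 27.8 CPM. Its receptor Notch1 was higher, with 490.1, 444, 451 and 457 CPM in IFN-gamma 48 h cells, against 358, 361, 331 and 336 CPM in untreated 24 h cells and no overlap (log2 fold change 0.41 ± 0.072 (SE), adjusted p = 3.6e-05). Of the repressors that Notch induces, Hes1 was lower, with 1.72, 0.903, 1.03 and 0.981 CPM in IFN-gamma 48 h cells, against 3.53, 3.05, 2.68 and 2.08 CPM in untreated 24 h cells and no overlap (log2 fold change -1.27 ± 0.21 (SE), adjusted p = 1.76e-05). Hey1 was higher, with 33.6, 32.1, 29.1 and 29.5 CPM in IFN-gamma 48 h cells, against 24.2, 22.7, 22.1 and 22.2 CPM in untreated 24 h cells and no overlap (log2 fold change 0.45 ± 0.082 (SE), adjusted p = 7.16e-05), and Hes5 was not called, at -0.48 ± 0.28.

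Lingo1, a membrane protein that holds back differentiation and myelination, had 8.28, 7.22, 6.21 and 8.83 CPM in IFN-gamma 48 h cells, against 14.5, 14.9, 13.7 and 15.5 CPM in untreated 24 h cells. All treated libraries were below all untreated 24 h libraries (log2 fold change -0.94 ± 0.11 (SE), adjusted p = 1.51e-08), and they were below untreated 48 h cells as well, at -0.55 (adjusted p = 0.000179). Tcf4 is a partner of Olig2 in binding DNA and so a doubtful member of a list of inhibitors. It had 629.8, 673, 646 and 578 CPM in IFN-gamma 48 h cells, against 443, 466, 452 and 484 CPM in untreated 24 h cells. The groups did not overlap for Tcf4 (log2 fold change 0.45 ± 0.080 (SE), adjusted p = 3.93e-05). Axin2, a feedback gene of Wnt signalling, was higher at 0.36 ± 0.13 (adjusted p = 0.042), called under 10 of the 18 other settings. Bmp2 was higher at 1.19 ± 0.40 (adjusted p = 0.0302), called under 12 of them.

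**Figure D4:**
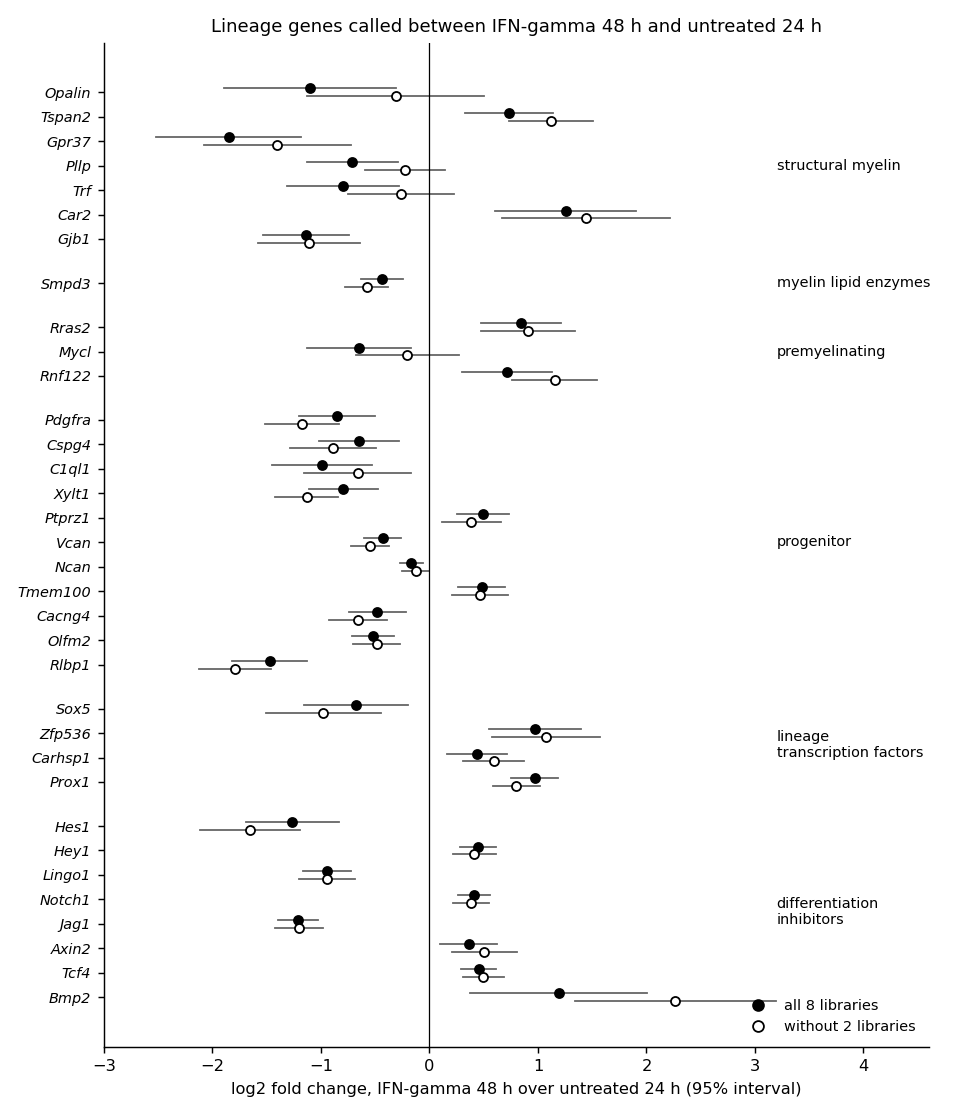
Log2 fold change of IFN-gamma 48 h over untreated 24 h (x axis, with 95% intervals) of the lineage genes called. Filled points use all 8 libraries and open points leave out 2. Jag1 (-1.21 and -1.20) and Lingo1 (-0.94 and -0.94) move little between the fits, while Opalin (-1.10 and -0.31) and Pllp (-0.71 and -0.23) shift toward 0.

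Most interferon genes were higher than at both untreated ages. All 20 GBP and IRG GTPases tested and all 22 genes of MHC class I processing were higher than in untreated 24 h cells. So were all 7 tested genes of MHC class II presentation and all 27 tested type I interferon-stimulated genes. Their median log2 fold changes, list by list, were 9.996, 5.855, 7.543 and 6.433, against -0.007 for all genes. Of the 21 GTPases listed Gvin1 was below the filter. So were H2-DMb2, H2-Oa, H2-Ob and Ctss of the 11 class II genes, and Oas2, Oas3 and Oasl1 of the 30 type I genes. A gene could pass the filter by group on treated libraries alone, so these counts describe tested genes only. Without the 2 libraries all tested members were again higher, with medians of 11.11, 5.932, 9.576 and 7.722. Many of these genes had few or no reads in untreated cells, where a fitted fold change depends on the prior count. Relative to untreated 48 h cells 19 of the 20 GTPases, 20 of the 22 class I genes, all 7 class II genes and all 27 type I genes were higher. Of 17 signalling genes 13 were higher and 2 were lower, the receptor chains Ifngr1 (-0.23) and Ifngr2 (-0.59). The call of Ifngr1 was lost without the 2 libraries, at -0.21 (adjusted p = 0.057). GBP, Tgtp, H2-Q and H2-T genes have near-identical copies, so the split of reads among them is uncertain. Irf1, a transcription factor of the interferon response, had 808, 684, 775 and 801 CPM in IFN-gamma 48 h cells, against 22.7, 23.6, 23.7 and 21.4 CPM in untreated 24 h cells (log2 fold change 5.07 ± 0.13 (SE), adjusted p = 1.21e-26).

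Gbp2, a guanylate-binding protein of cell-autonomous defence, had 3876, 4398, 5417 and 4767 CPM in IFN-gamma 48 h cells, against 0, 0.2, 0.119 and 0.254 CPM in untreated 24 h cells, with untreated values of a few reads (log2 fold change 14.83 ± 0.59 (SE), adjusted p = 1.65e-21). B2m, the light chain of MHC class I, had 1522, 2176, 2304 and 2134 CPM in IFN-gamma 48 h cells, against 21.4, 21.5, 18.7 and 22.6 CPM in untreated 24 h cells (log2 fold change 6.60 ± 0.17 (SE), adjusted p = 8.54e-27), and the heavy chain H2-K1 was at 8.11 ± 0.26. Ciita, the master regulator of MHC class II, had 62.5, 36.7, 39.5 and 53.6 CPM in IFN-gamma 48 h cells, against 0.0543, 0, 0 and 0.636 CPM in untreated 24 h cells (log2 fold change 7.86 ± 0.41 (SE), adjusted p = 5.23e-18), and Cd74, the invariant chain, was at 7.54 ± 0.42. Untreated library 4 held most of the few untreated reads of both, and without it the fitted log2 fold changes were 10.93 for Ciita and 9.49 for Cd74. Tgtp1 had 2 reads in all untreated 24 h libraries together, and its ratio was 19700 with a counting interval of 5460 to 163000. Ifi47 and Gbp10 had 3 reads each there, with ratios of 15400 (5270 to 74700) and 7140 (2440 to 34600).

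Promoters are shown to set interferon genes that rose beside lineage genes that fell. The sequences are the 250 bases before the annotated start, from RefSeq on GRCm38.p6, each 5′ to 3′ on the gene's strand. Capitals mark a gamma-activated site (GAS, TTCNNNGAA) or an interferon-stimulated response element (ISRE, GAAANNGAAA), which IRF factors bind, searched on both strands. The first 3 are interferon genes, and Gpr37 and Jag1 are lineage genes that fell.
Irf1, chr11:53769764-53770013, plus strand: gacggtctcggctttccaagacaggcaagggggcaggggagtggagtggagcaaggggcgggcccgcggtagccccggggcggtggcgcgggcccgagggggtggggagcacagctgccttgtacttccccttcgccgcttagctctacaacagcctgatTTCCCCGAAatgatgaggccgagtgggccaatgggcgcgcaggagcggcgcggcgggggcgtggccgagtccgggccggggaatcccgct
Gbp2, chr3:142620413-142620662, plus strand: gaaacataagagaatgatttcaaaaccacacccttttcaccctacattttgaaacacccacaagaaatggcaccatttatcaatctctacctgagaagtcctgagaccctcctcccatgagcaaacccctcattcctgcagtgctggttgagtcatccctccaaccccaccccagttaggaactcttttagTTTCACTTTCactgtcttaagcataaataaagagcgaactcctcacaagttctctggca
B2m, chr2:122147437-122147686, plus strand: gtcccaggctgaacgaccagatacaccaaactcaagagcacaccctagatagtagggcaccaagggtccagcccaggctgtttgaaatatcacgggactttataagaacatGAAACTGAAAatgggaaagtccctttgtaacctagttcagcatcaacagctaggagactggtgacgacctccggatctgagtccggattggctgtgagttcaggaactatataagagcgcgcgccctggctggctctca
Gpr37, chr6:25689981-25690230, minus strand: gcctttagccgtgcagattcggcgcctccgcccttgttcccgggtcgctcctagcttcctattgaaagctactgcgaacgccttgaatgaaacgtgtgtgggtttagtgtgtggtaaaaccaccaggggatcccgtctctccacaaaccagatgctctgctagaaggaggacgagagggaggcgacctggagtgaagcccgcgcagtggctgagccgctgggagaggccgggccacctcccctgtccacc
Jag1, chr2:137116521-137116770, minus strand: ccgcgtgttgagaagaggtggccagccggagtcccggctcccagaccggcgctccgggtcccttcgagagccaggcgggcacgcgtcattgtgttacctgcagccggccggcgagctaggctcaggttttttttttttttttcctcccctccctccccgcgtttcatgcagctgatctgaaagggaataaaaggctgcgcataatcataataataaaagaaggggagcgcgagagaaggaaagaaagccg

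The Irf1 window holds a GAS that begins at -90 from the start, while a second annotated Irf1 promoter, chr11:53770223-53770472, holds neither motif in its 250 bases. The Gbp2 window holds an ISRE at -59 in the reverse orientation, and the B2m window an ISRE at -139. Neither motif was found in the Gpr37 and Jag1 windows, which says only that these letters are not there. Over windows of 300 bases, 250 before to 50 after the start, 3.44% of all 32851 promoters held the ISRE and 8.3% held the GAS. Of the 14078 promoters of genes tested 2.92% held the ISRE and 6.71% the GAS. Of the 11 promoters of GBP and IRG genes 81.8% held the ISRE and 54.5% the GAS, and 57.1% of the 21 promoters of type I interferon-stimulated genes and 23.8% of the 21 of MHC class I genes held the ISRE. None of the 5 promoters of MHC class II genes held either motif. No promoter of the 6 lineage lists held the ISRE. The GAS was in 3 of 25 promoters of structural myelin genes (all 3 of 1 gene) and 4 of 27 of lineage transcription factors (of 2 genes). It was in 1 of 13 of lipid enzymes, 1 of 14 of premyelinating genes, 1 of 13 of inhibitors and 0 of 19 of progenitor genes. A gene can have several promoters, and some have no entry.

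Genes of surface signals and secreted factors rose with the interferon genes. Cd274, the checkpoint ligand PD-L1, had 77.3, 92.1, 89.4 and 78.6 CPM in IFN-gamma 48 h cells, against 0.217, 0.701, 0.298 and 0.466 CPM in untreated 24 h cells (log2 fold change 7.59 ± 0.32 (SE), adjusted p = 7.84e-21), and 8 of 9 checkpoint, adhesion and death receptor genes were higher (9 without the 2 libraries). Of 6 chemokine and cytokine genes tested 4 were higher (5 without the 2 libraries), among them Cxcl10 (6.77) and Csf1 (1.98), and 4 of 5 complement genes were higher (5 without the 2 libraries), led by the inhibitor Serping1 (9.61). The feedback inhibitor Socs1 was at 7.21 ± 0.38. Of 15 genes listed for disease-associated oligodendrocytes 8 were higher, among them Serpina3f (9.77) and C4b (3.57), 2 were lower, Anxa2 (-0.65) and Sgk3 (-0.25), and Serpina3n was not called (0.17 ± 0.18). The call of Sgk3 was lost without the 2 libraries, at -0.10 (adjusted p = 0.224), where 10 of the 15 were higher and 2 lower.

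Among called genes whose groups did not overlap and whose mean log2 CPM was 1 or more, the 8 largest falls were in genes outside the lineage lists. Pnlip, a lipase known from the pancreas, had 3.21, 2.42, 4.58 and 4.38 CPM in IFN-gamma 48 h cells, against 39.3, 41, 53.2 and 37.9 CPM in untreated 24 h cells. The groups were far apart (log2 fold change -3.57 ± 0.39 (SE), adjusted p = 4.63e-09), and untreated 48 h cells averaged 17.7 CPM, above the treated cells. Sorcs2, a sorting receptor, had 3.64, 2.57, 1.69 and 2.22 CPM in IFN-gamma 48 h cells, against 21.9, 22.2, 19 and 10.4 CPM in untreated 24 h cells with no overlap (log2 fold change -2.83 ± 0.20 (SE), adjusted p = 4.84e-14). Cdc42ep5, Col19a1, Kdr, Htr3a, Zcchc12 and Kif26a followed at -2.66, -2.12, -2.11, -2.07, -2.05 and -1.96. These genes were also lower than in untreated 48 h cells, with log2 fold changes of -1.01 (Col19a1) to -3.51 (Kif26a). Of the 8, Kif26a was higher in untreated 48 h than in untreated 24 h cells, at 1.55 (adjusted p = 9.92e-05).

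**Figure D5:**
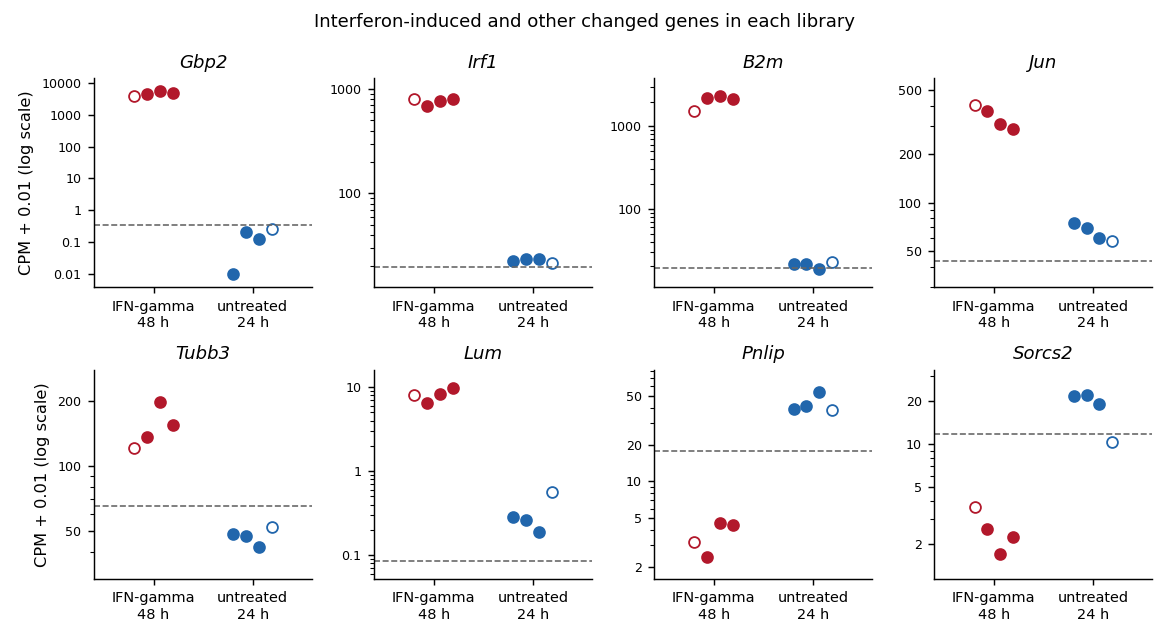
CPM plus 0.01 on a log scale (y axis) of 8 genes in the IFN-gamma 48 h libraries (left in each panel) and the untreated 24 h libraries (right). Points are libraries, dashed lines are the untreated 48 h mean and open symbols are the 2 libraries that stood apart. No gene shown overlaps between the groups, with Gbp2, Irf1, B2m, Jun, Tubb3 and Lum higher and Pnlip and Sorcs2 lower in treated cells.

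Cell death and early response genes changed in part. Of 22 apoptosis genes 11 were higher and none was lower, against 12 higher and 1 lower at an unadjusted p under 0.05. Leaving out the 2 libraries gave 11 higher and 4 lower, the lower ones being Bax, Bcl2, Pmaip1 and Apaf1. Casp1, Casp12, Casp4 and Mlkl, genes of inflammatory caspases and of necroptosis, led at 7.95, 7.64, 4.81 and 4.99. Jun, a subunit of the AP-1 factor, had 405, 369, 307 and 285 CPM in IFN-gamma 48 h cells, against 75, 69.6, 60.1 and 57.6 CPM in untreated 24 h cells with no overlap (log2 fold change 2.38 ± 0.17 (SE), adjusted p = 7.57e-14). Its partner Fos was lower at -0.52 ± 0.10 (adjusted p = 0.000197). Klf4 was lower at -2.50 ± 0.46 and Egr2 higher at 1.66 ± 0.27. In all, 4 of 22 immediate early genes were higher and 3 lower, while 3 were higher and 7 lower without the 2 libraries.

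Chaperone genes of the endoplasmic reticulum changed little in size. Of 28 chaperone and degradation genes 7 were higher and 20 were within 2-fold, and 17 were higher without the 2 libraries, with a median of 0.25. With all libraries Hspa5, the chaperone BiP, was at 0.19 ± 0.067 (adjusted p = 0.0385). Of 30 genes of the integrated stress response 6 were higher, 5 lower and 15 within 2-fold, while 3 were higher and 9 lower without the 2 libraries. Wars, a tryptophan tRNA synthetase that interferon induces, had 259, 373, 515 and 417 CPM in IFN-gamma 48 h cells, against 116, 114, 118 and 119 CPM in untreated 24 h cells (log2 fold change 1.74 ± 0.12 (SE), adjusted p = 8.14e-15). Ddit3, the factor CHOP, was higher at 0.67 ± 0.15. The calls of Atf3, Trib3 and Chac1 were lost without the 2 libraries, at 1.08 (adjusted p = 0.0769), 1.08 (adjusted p = 0.111) and 1.09 (adjusted p = 0.0533). All 26 ribosomal protein genes were within 2-fold, with 0 higher and 1 lower at an unadjusted p under 0.05 in edgeR. Leaving out the 2 libraries gave 7 of them lower, with a median of -0.22. Of 11 mitochondrially encoded genes 1 was higher, mt-Nd4, and 1 was higher without the 2 libraries.

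Markers of other cell types moved in part. Of 10 astrocyte genes tested 3 were higher (Gfap, Aldoc and Slc1a3) and 1 lower (Fgfr3), and their sum was 636.3 to 747.2 CPM in IFN-gamma 48 h libraries, against 453.9 to 517.8 CPM in untreated 24 h libraries. In untreated 48 h libraries the sum was 629.4 to 823.1 CPM, and relative to these cells 3 of the 10 were higher and 4 lower. The call of Slc1a3 was lost without the 2 libraries, at 0.16 (adjusted p = 0.408), where 4 of the 10 were higher and 1 lower. Of 8 neuron genes Tubb3, a neuronal tubulin, had 121, 136, 197 and 154 CPM in IFN-gamma 48 h cells, against 48.5, 47.4, 42.3 and 52.3 CPM in untreated 24 h cells (log2 fold change 1.67 ± 0.13 (SE), adjusted p = 8.77e-13). Syt1 was higher (0.77), with the call lost without the 2 libraries at 0.50 (adjusted p = 0.0526), and Snap25 was lower (-0.46). Without the 2 libraries 1 was higher and 2 lower. The summed list was 863.4 CPM in IFN-gamma 48 h library 1, 1232 to 1395 CPM in libraries 2 to 4 and 1185 to 1277 CPM in untreated 24 h libraries. IFN-gamma 1 h library 2, 8 h library 1 and 24 h library 1 also held the lowest sums of their groups, at 853.2, 936.6 and 865.5 CPM. Their Xist was 634.9, 590.3 and 558.8 CPM. Library 3 of each IFN-gamma group held Xist too, with sums of 1170, 1390, 1283 and 1312 CPM. A shared source was not tested. Fibroblast markers summed to 12.3 to 13.7 CPM in treated libraries, against 1.61 to 6.57 CPM in untreated 24 h libraries, from Lum (log2 fold change 4.598) and Fn1 (1.02), while Col1a1, Col1a2, Col3a1, Dcn and Foxc1 were below the filter. Endothelial and mural markers summed to 9.22 to 11.6 CPM in treated libraries, against 0.775 to 5.0 CPM in untreated 24 h libraries, from Acta2 (4.89), while Cldn5, Cdh5, Tek, Pdgfrb and Vtn were below the filter. The part of other cells in the lineage results was not tested.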

How the data were processed

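Bulk RNA was sequenced on an Illumina HiSeq instrument after column purification of total RNA with DNase treatment, per the labels' protocols. The authors deposited raw read counts per gene, with 39056 identifiers of which 38872 matched a symbol. The authors also deposited estimated counts for 112588 transcripts, not normalised. The submitters' processing notes name STAR, featureCounts, kallisto and edgeR. Versions, build, annotation and use of strand are not named in these sources, so overlapping and antisense genes may share reads.

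Genes were filtered with filterByExpr by group and scaled by TMM. All 40 libraries entered 1 edgeR 4.0.16 quasi-likelihood fit (R 4.3.3) with the 10 groups as terms, 30 residual degrees of freedom, prior count 0.125 and Benjamini-Hochberg adjustment. The standard error is the log2 fold change divided by the root of F. Positions are least-squares slopes on log2 CPM (prior count 2) and carry no test. The code was tested on simulated data. Each pair of replicates within the 2 groups varied beyond counting error.

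Members, lists and the 2 libraries left out were chosen with earlier results of these data known. Named genes are the lineage members, the 8 top rises and 8 top falls (called, without overlap, mean log2 CPM 1 or more), up to 4 called members of each other list, and a fixed set. Ifngr1, Ifngr2, Fos, Anxa2, Sgk3, Serpina3n, Bax, Bcl2, Pmaip1 and Apaf1 were added after their values were seen. The tissue label reads whole brain while the growth protocol names cortices. Alternatives were RLE size factors, DESeq2 1.42.0, no filter, other sample sets, library-number ranges, a Y-linked covariate, the isoform table summed per gene and rounded, and leaving out libraries. Thapsigargin libraries entered the fit and are not described here. Some measured genes are not reported here.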

Additional observations from a re-analysis of the deposited data

Results flagged for a closer look

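Each of the 2 groups has 4 libraries, and a library was picked out where its gap to the nearest other library took up most of its group's range. Of 88 group values examined 17 met this. The cut is one that about 1 in 20 independent groups would pass by chance. These values are not independent, and the genes were those already named here, so that rate does not apply to the 17.

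Of these, 15 were in untreated 24 h library 4. It held 324.9 CPM of Mbp (the other 3 libraries held 89.8 to 120.4), 357.9 CPM of Enpp6 (70.8 to 79.1), 3221 CPM of Bcas1 (1396 to 1579) and 2295 CPM of Gpr17 (1367 to 1463). It held 133.9 CPM of Myrf (89.2 to 96.2), 4.62 CPM of Opalin (1.55 to 2.06), 56.8 CPM of Pllp (31.3 to 33.1), 72.7 CPM of Tspan2 (48.2 to 49.1) and 86.5 CPM of Rnf122 (47.5 to 52.3). It also held 885.2 CPM of Sox10 (621.7 to 660.1) and 138 CPM of Hsd17b7 (73.9 to 80.5). Progenitor genes were low there, Pdgfra at 1674 CPM (2437 to 2499) and Rlbp1 at 88.4 CPM (133.3 to 140.6). Its position was 0.684 on rising genes (0.211 to 0.238) and 0.563 on falling genes (0.166 to 0.209). This library also had the most genes with at least 1 read, 31854, against 18313 to 29190 in the other 7 libraries, and its part in these values was not tested.

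The other 2 were in IFN-gamma 48 h library 1, with 64.8 CPM of Prox1 (49.1 to 49.9 in the other 3 libraries) and 1.72 CPM of Hes1 (0.903 to 1.02).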

How the results depend on the processing

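The 3152 genes called became 1628 when the fit held just these 2 groups, 1688 in the lower 20 library numbers alone and 5322 without IFN-gamma 48 h library 1 and untreated 24 h library 4 together. They were 3162 with RLE size factors, 2321 with no filter, 3417 with the library-number range as a term, 3242 with DESeq2, 2158 in the isoform table and 2128 in the upper 20 library numbers. With only the 2 groups, 3 structural myelin, 1 premyelinating and 2 transcription factor genes were called. In the lower 20 library numbers, where each group has 2 libraries, these lists had 3 structural myelin, 0 premyelinating and 0 lipid enzyme genes, treated against untreated 48 h cells gave 3039 genes and untreated 48 h against 24 h cells gave 610. In the upper 20, 7 progenitor genes were called. Without both libraries 12 structural myelin, 5 lipid enzyme, 12 premyelinating and 15 transcription factor genes were called, and Bcas1 turned to 0.61. Fewer libraries enter the fits of single number ranges, of just the 2 groups and without both libraries. The causes of the differences between settings were not tested.

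Leaving out 1 library at a time gave 2387 to 4399 genes called, 8424 to 10304 within 2-fold, 6 to 7 structural myelin, 1 to 2 lipid enzyme, 1 to 6 premyelinating, 10 to 12 progenitor, 2 to 12 transcription factor and 6 to 9 inhibitor genes. It gave 4135 to 5944 genes for treated against untreated 48 h cells and 5105 to 6732 for untreated 48 h against 24 h cells. The position difference was 0.058 to 0.273 on rising and 0.187 to 0.467 on falling genes. Premyelinating genes called were 5 without IFN-gamma 48 h library 1, 1 without library 3 and 6 without untreated 24 h library 4, and transcription factors were 12, 2 and 9. No paired analysis was possible because the labels give library numbers and no pairing, and replicates were numbered in accession order. Genes of a few reads per library, such as Bmp2 and Klf4, are limited by depth.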
